A study of Mus musculus with 6 samples.

Results

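The genes described here are the 7 that write, copy and oxidise DNA methylation, namely *Dnmt1*, *Uhrf1*, *Dnmt3a*, *Dnmt3b*, *Tet1*, *Tet2* and *Tet3*. They were chosen by symbol, and all 7 were found among the 23183 gene symbols of the mRNA-seq files. The data came from sorted CD4+CD8+ double positive (DP) thymocytes, a stage of immature T cells with both coreceptors on the surface, with 3 libraries from NSRP1f/f mice (WT) and 3 from NSRP1f/fCD4Cre mice (NSrp70-cKO, or cKO). All mice were C57BL/6 and 6 weeks old, and all carried the floxed *Nsrp1* alleles, whose gene encodes the splicing factor NSrp70. Only the cKO mice carried the CD4Cre transgene, in which CD4 regulatory elements drive the recombinase in T lineage cells, so loss of NSrp70 and presence of Cre cannot be told apart. The comparison asks how the mRNA levels of these genes differed between DP thymocytes with and without the deletion. Neither the labels nor the methods say whether each library came from a separate mouse, so p-values measure only the spread between these libraries.

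DNA methylation in mammals sits mainly on cytosines followed by guanine (CpG). DNMT1 copies the methyl mark onto the new strand after replication, and UHRF1 brings it there by binding the hemimethylated site. DNMT3A and DNMT3B set new marks. TET1, TET2 and TET3 are dioxygenases that oxidise methylated cytosine, which starts its removal. In developing T cells, dividing thymocytes depend on the copying step, and TET proteins act at genes of lineage choice.

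In cKO DP thymocytes the mRNAs of the copying machinery rose, while those of *Dnmt3a* and of 2 of the 3 TET genes fell. *Uhrf1* rose by 56.1% in mean FPKM and *Dnmt1* by 20.5%, whereas *Tet3* fell by 53.9%, *Tet2* fell by 35.6% and *Dnmt3a* fell by 33.3%. *Tet1* did not pass the test, and *Dnmt3b* was too low to be tested. Both increases depended on how libraries were scaled. When all libraries were set to the same FPKM total, *Uhrf1* was not called and *Dnmt1* was called lower. Under quantile normalization *Dnmt1* was not called in either direction. Calls in either direction were common, at 65.5% of all 10326 tested genes. The changes in the balance between the genes, which no factor applied to a whole library can alter, are given below as ratios.

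The sequences before an annotated start of 3 of these genes show CpG sites, on which the enzymes act, and how they differ in density. The lines below give the 250 bases before an annotated start of *Uhrf1*, which rose, and of *Dnmt3a* and *Tet2*, which fell, read 5′ to 3′ from the RefSeq promoter table of GRCm38.p6, with each CpG in capitals. Each stretch lies within the span of its gene, before an internal start, and holds no annotated exon. They are examples picked from the genes that rose or fell, and other windows without exons, such as those of *Dnmt3b* and *Dnmt1* with 30, 12 and 2 CpG sites in 300 bases, are not printed.
Uhrf1, chr17:56304063-56304312, plus strand: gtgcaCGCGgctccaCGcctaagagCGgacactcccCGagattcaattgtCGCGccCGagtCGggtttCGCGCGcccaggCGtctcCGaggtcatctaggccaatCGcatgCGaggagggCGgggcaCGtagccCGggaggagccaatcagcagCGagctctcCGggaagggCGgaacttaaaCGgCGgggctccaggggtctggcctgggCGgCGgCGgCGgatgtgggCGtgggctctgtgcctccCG
Dnmt3a, chr12:3806730-3806979, plus strand: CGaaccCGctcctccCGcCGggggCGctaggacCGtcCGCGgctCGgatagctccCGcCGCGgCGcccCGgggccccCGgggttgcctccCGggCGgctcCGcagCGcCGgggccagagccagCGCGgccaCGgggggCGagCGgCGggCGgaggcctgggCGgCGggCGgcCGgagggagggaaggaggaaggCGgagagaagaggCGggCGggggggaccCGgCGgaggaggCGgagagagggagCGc
Tet2, chr3:133544391-133544640, minus strand: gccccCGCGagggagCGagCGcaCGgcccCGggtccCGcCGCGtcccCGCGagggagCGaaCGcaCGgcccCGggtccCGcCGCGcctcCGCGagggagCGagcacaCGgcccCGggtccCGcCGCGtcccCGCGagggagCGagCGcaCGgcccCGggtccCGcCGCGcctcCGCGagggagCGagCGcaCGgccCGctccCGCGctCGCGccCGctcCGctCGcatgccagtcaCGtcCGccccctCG
The 3 stretches held 30, 38 and 51 CpG sites. Over windows of 300 bases, from 250 before to 50 after a start, *Tet2* had 57 CpG sites, more than 99.8% of the 32851 windows in the table, whose median was 7. The window of the *Uhrf1* start shown had 33 and that of the *Dnmt3a* start shown 46. The low end among the 12 windows of the 7 genes was 2, at the most upstream start of *Dnmt1*. No methylation was measured in these libraries, so the sequences describe the genes and not their state.

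The windows of *Uhrf1* and *Dnmt1* also shared a motif. E2F factors switch on genes at the entry to S phase, and their 8-base site, searched as TTTCGCGC or TTTGGCGC on both strands, was in 1 of the 2 windows of *Uhrf1* and 1 of the 3 windows of *Dnmt1*. It was in 0.813% of all 32851 windows, in a window of 2.11% of the 7923 tested genes with an entry, and in a window of 7 of 21 genes of a list of S phase genes with one. Those 7 include *Cdt1*, the gene of the list called lower in cKO. The windows of *Dnmt3a*, *Dnmt3b*, *Tet1*, *Tet2* and *Tet3* held no E2F match, which says only that these letters are not in them. Each E2F match is printed with the bases around it and with the motif in capitals, on the strand of the gene. In the first line the motif lies on the opposite strand.
Dnmt1, before the start, chr9:20952824-20952853, minus strand: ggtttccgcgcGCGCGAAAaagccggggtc
Dnmt1, after the start, chr9:20952574-20952603, minus strand: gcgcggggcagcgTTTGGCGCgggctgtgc
Uhrf1, chr17:56304117-56304146, plus strand: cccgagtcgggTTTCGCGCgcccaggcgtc
The first base of the *Uhrf1* match lay 185 bases before the start and those of the *Dnmt1* matches 219 bases before and 33 bases after it. These matches are a description, and binding was not measured.

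The files hold FPKM values (fragments per length of transcript and per depth of library), 1 per gene and library. The depth, estimated from the steps of 1 fragment in low values, was 20.7 to 20.8 M fragments in the WT libraries and 13.2 to 20.7 M in the cKO libraries. At this depth an estimated 40 to 92 fragments per library lay behind *Dnmt3b*, 394 to 908 behind *Tet2*, and at least 845 behind each of the other 5 genes. The WT libraries differed from each other by 1.22 to 1.28 times the counting noise and the cKO libraries by 5.14 to 13.2 times. For this reason the results on the 7 genes and the counts of each list are also given with WT entered as 1 averaged sample, where the WT group has no spread of its own and all the spread comes from the cKO libraries. *Nsrp1*, listed under its older symbol *Ccdc55*, had an FPKM of 20.2, 20.7 and 21.1 in WT 1, 2 and 3 and of 17.7, 15.8 and 15.0 in cKO 1, 2 and 3, and its log2 fold change by limma was -0.34 with an adjusted p of 0.00675 (0.184 with WT as 1 averaged sample). FPKM values sum over all exons of a gene, so they do not measure the deleted part. *Xist* averaged 70.9 FPKM in WT and 4.75 in cKO, and *Ddx3y*, *Eif2s3y*, *Kdm5d* and *Uty* of chromosome Y were listed at 0 in every WT library and at means of 7.23 to 36.2 in cKO, so sex and genotype cannot be told apart. The 7 genes lie on autosomes.

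All 9 markers of DP thymocytes, among them *Cd4*, *Cd8a*, *Rag1* and *Rag2*, were detected, with a summed FPKM of 5624 to 5703 in WT and 7356 to 9563 in cKO. Of 12 markers of mature single positive thymocytes, 9 were called lower and 1 higher, and their sum was 150 to 152 in WT and 111 to 134 in cKO. The 6 markers of double negative thymocytes summed to 47.0 to 47.8 and 28.9 to 38.8, with 4 called lower. The sums in WT and cKO were 19.7 to 20.9 and 11.9 to 15.4 for 7 markers of macrophages and dendritic cells, 1.96 to 2.72 and 12.3 to 26.6 for 4 markers of erythroid cells, 1.19 to 1.23 and 0.984 to 1.81 for 4 markers of B cells, and 3.56 to 3.98 and 1.92 to 3.67 for 5 markers of thymic epithelium, of which *Krt5* and *Foxn1* were at 0 throughout. The part of these cell types in the results on the 7 genes was not tested. In bulk RNA, fewer cells of a type and less RNA per cell cannot be told apart.

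**Figure D1:**
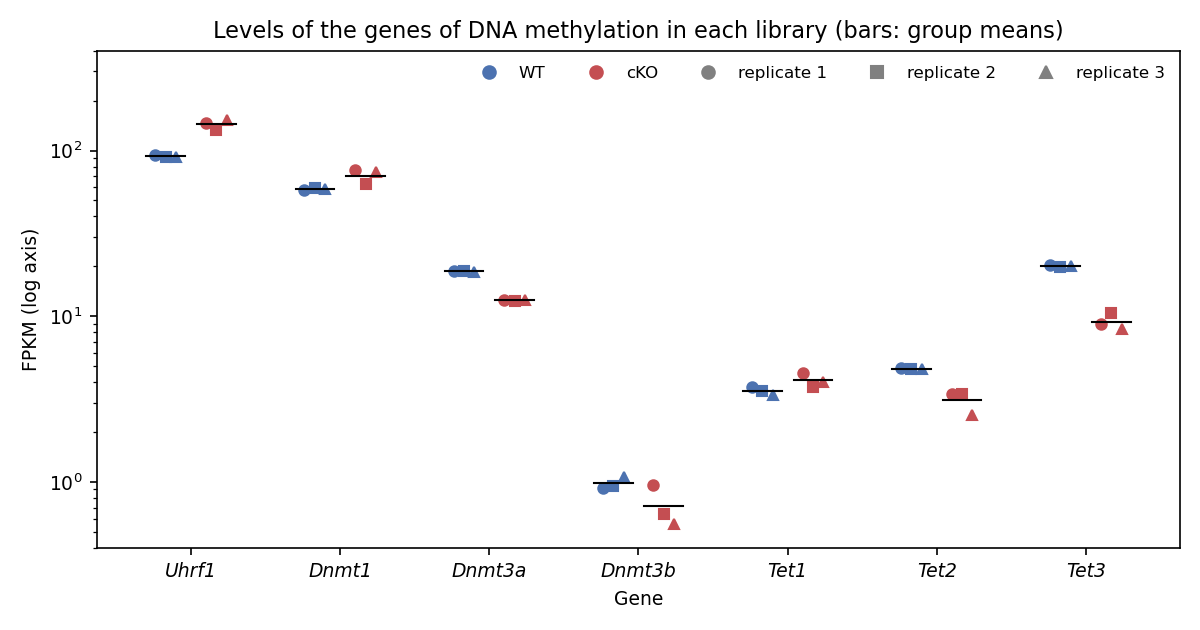
FPKM (log axis) of the 7 genes in each WT (blue) and cKO (red) library, with the marker shape giving the replicate number and the bar the group mean. The cKO points of *Uhrf1* and *Dnmt1* lie above the WT points, those of *Dnmt3a*, *Tet2* and *Tet3* lie below them, and the groups overlap for *Dnmt3b* and *Tet1*.

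Of the copying machinery, *Uhrf1* (chromosome 17, 56303321 to 56323486 of GRCm38, plus strand) had an FPKM of 94.5, 91.1 and 91.2 in WT 1, 2 and 3 and of 146, 133 and 153 in cKO 1, 2 and 3. Every cKO value lay above every WT value. On the scale of log2(FPKM + 1), *Uhrf1* was higher by 0.63 ± 0.077 (SE; limma, adjusted p = 0.000542), and 14.7% of the 10326 tested genes had a higher one. The adjusted p was 0.0643 with WT as 1 averaged sample. Scaled to the same FPKM total, which lowers all genes in cKO because the cKO libraries had the larger totals, *Uhrf1* was at 0.077 and not called. Quantile normalization left it at 0.26, still called.

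*Dnmt1* (chromosome 9, 20907209 to 20959888, minus strand), the maintenance methyltransferase, had an FPKM of 57.8, 59.4 and 58.7 in WT 1, 2 and 3 and of 75.8, 62.4 and 73.7 in cKO 1, 2 and 3. The groups did not overlap, but cKO 2 stood close to the WT values. The log2 fold change of *Dnmt1* was 0.26 ± 0.089 (SE), with limma's adjusted p at 0.0366 and a 95% confidence interval of 0.048 to 0.47. This call was weak: the adjusted p was 0.0833 to 0.115 without any 1 of the WT libraries, cKO 1 or cKO 3, and 0.346 with WT as 1 averaged sample. Quantile normalization brought *Dnmt1* to 0.017. The same FPKM total brought it to -0.29, where it was called lower (limma, adjusted p = 0.00778).

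Of the enzymes that set new marks, *Dnmt3a* (chromosome 12, 3806007 to 3914443, plus strand) had an FPKM of 18.7, 18.8 and 18.6 in WT 1, 2 and 3. In cKO 1, 2 and 3 it was 12.5, 12.4 and 12.6. All cKO values lay below all WT values, and the SD within a group was smaller relative to the mean than that of any other of the 7 genes. The log2 fold change of *Dnmt3a* was -0.55 ± 0.057 (SE; limma, adjusted p = 0.000318, 0.0564 with WT as 1 averaged sample). *Dnmt3aos*, annotated antisense to *Dnmt3a*, reached at most 0.396 FPKM in any library.

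*Dnmt3b* (chromosome 2, 153649450 to 153687730, plus strand) was near the limit of the filter, which kept genes that reached an FPKM of 1 in 3 or more libraries, and was not among the tested genes. It had an FPKM of 0.920, 0.949 and 1.08 in WT 1, 2 and 3 and of 0.952, 0.642 and 0.559 in cKO 1, 2 and 3. The groups overlapped through cKO 1. In a fit without the filter its log2 fold change was -0.21 (standard error 0.096, adjusted p = 0.13 from limma). *Dnmt3l*, the catalytically inactive partner of both enzymes, was listed at 0 in all 6 libraries.

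Among the dioxygenases, *Tet3* (chromosome 6, 83362373 to 83459084, minus strand) had the largest log2 fold change in size of the 6 tested genes in the limma fit, though not with GC content and length corrected. It had an FPKM of 20.4, 19.8 and 20.0 in WT 1, 2 and 3 and of 8.94, 10.5 and 8.36 in cKO 1, 2 and 3. The cKO values all lay below the WT values, and the WT mean was 2.17 times the cKO mean. The log2 fold change of *Tet3* was -1.04 (standard error 0.086, adjusted p = 0.000160 from limma), and 3.98% of the tested genes had a lower one. The adjusted p of *Tet3* was 0.0303 with WT as 1 averaged sample. Of the tested genes, 4.71% were called lower with a log2 fold change of -1 or below, among them *Tet3*. Under the same FPKM total all 3 decreases were larger, at -1.57 for *Tet3*, -1.08 for *Dnmt3a* and -0.96 for *Tet2*.

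*Tet2* (chromosome 3, 133463679 to 133545139, minus strand) had an FPKM of 4.85, 4.78 and 4.83 in WT 1, 2 and 3 and of 3.39, 3.40 and 2.53 in cKO 1, 2 and 3. The groups did not overlap, and cKO 3 was lowest. The log2 fold change of *Tet2* was -0.51 ± 0.10 (SE; limma, adjusted p = 0.00403, 0.114 with WT as 1 averaged sample). *Tet1* (chromosome 10, 62804570 to 62908996, minus strand) had an FPKM of 3.73, 3.53 and 3.35 in WT 1, 2 and 3 and of 4.53, 3.72 and 4.02 in cKO 1, 2 and 3. Its groups overlapped because cKO 2 lay just under WT 1, and its log2 fold change was 0.16 (95% confidence interval -0.047 to 0.37, adjusted p = 0.144 from limma, 0.534 with WT as 1 averaged sample). Without cKO 2 the adjusted p of *Tet1* was 0.0444 and the log2 fold change 0.22. Under the same FPKM total the log2 fold change of *Tet1* was -0.28, and it was called lower (limma, adjusted p = 0.0360).

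In the limma test, 5 of the 6 tested genes had an adjusted p under 0.05, 2 higher and 3 lower, and the groups did not overlap for these 5. Such calls were common, with 65.5% of all 10326 tested genes called, 35.8% higher and 29.8% lower, and 72.5% not overlapping, so the count says nothing particular about the 7 genes. The cKO values lay above the WT values in 39.2% of genes and below them in 33.3%. Counting the WT libraries as 1 sample left 0 of the 6 called higher and 1 lower, against 15.9% of all genes called, 7.21% higher and 8.73% lower. Quantile normalization gave 2 higher and 3 lower, against 63.1% called, 33.7% higher and 29.4% lower. The 2 called higher were then *Uhrf1* and *Tet1*, and *Dnmt1* was not called. The same FPKM total gave 0 and 5, against 68.6% called, 8.74% higher and 59.9% lower. In cKO 2, the values of *Uhrf1*, *Dnmt1*, *Tet1* and *Tet3* were nearer to the WT means than in the other cKO libraries. *Tet2* was about level in cKO 2 and cKO 1 (3.40 and 3.39 FPKM), and *Dnmt3a* was lowest in cKO 2 (12.4 FPKM). Among the cKO libraries, cKO 2 had the depth nearest to that of the WT libraries, and a part of depth in these values was not tested.

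The decreases also differed from the increases in transcript length. The longest annotated transcripts of *Dnmt3a*, *Tet2* and *Tet3* have 9685, 9179 and 10904 nucleotides, against 5870 for *Dnmt1* and 3586 for *Uhrf1*. *Tet1*, with 14369, did not fall in the main fit. Across 10241 genes, which are not independent replicates, longer transcripts and a higher GC content went with a lower log2 fold change (Spearman's rho of -0.275 and -0.341). Corrected for both, *Uhrf1* was at 0.86, *Dnmt1* at 0.67 and *Tet1* at 0.26, and *Tet2*, *Tet3* and *Dnmt3a* were at -0.39, -0.56 and -0.20. All 6 were then called, 3 higher and 3 lower, against 57.1% of genes called, 30% higher and 27.2% lower, with an adjusted p from limma of 0.0286 for *Tet1* and of 0.0362 for *Dnmt3a*. The directions were as before. In log2 units the decrease of *Tet3* was reduced most, from -1.04, and that of *Dnmt3a*, from -0.55, by more than that of *Tet2*. Relative to its size before the correction, the decrease of *Dnmt3a* was reduced most. The increases of *Uhrf1*, *Dnmt1* and *Tet1* were larger than before.

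**Figure D2:**
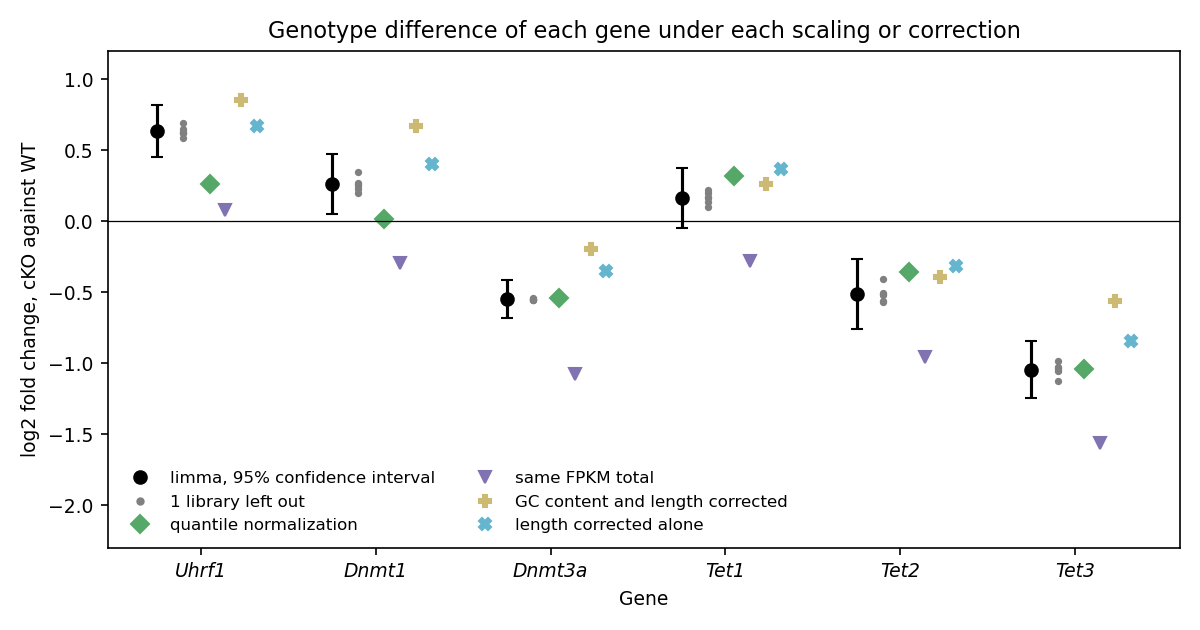
Log2 fold change of cKO against WT for the 6 tested genes, with the 95% confidence interval of the limma fit (black), the values with 1 library left out (grey) and those under other scalings or corrections (colours). *Dnmt3a*, *Tet2* and *Tet3* lie below 0 in every setting drawn and *Uhrf1* above it, whereas *Dnmt1* and *Tet1* turn negative under the same FPKM total.

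FPKM is per length, so the levels of the genes can be set in order within each group. In WT DP thymocytes the order was *Uhrf1* (mean FPKM 92.3), *Dnmt1* (58.6), *Tet3* (20.1), *Dnmt3a* (18.7), *Tet2* (4.82), *Tet1* (3.54) and *Dnmt3b* (0.981). In cKO it was *Uhrf1* (144), *Dnmt1* (70.6), *Dnmt3a* (12.5), *Tet3* (9.27), *Tet1* (4.09), *Tet2* (3.10) and *Dnmt3b* (0.718). *Tet3* and *Dnmt3a* had exchanged places, and so had *Tet2* and *Tet1*. In both groups each gene lay above the next in all 3 libraries, with ranges that did not touch. The closest neighbours were *Tet3* and *Dnmt3a* in WT, whose means stood at a ratio of 1.07.

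Ratios of FPKM values within a library do not depend on any factor by which a library is scaled. *Tet3* to *Dnmt3a* was 1.09, 1.05 and 1.08 in WT 1, 2 and 3 and 0.716, 0.850 and 0.665 in cKO 1, 2 and 3, the exchange of places seen in the order. *Tet1* to *Tet2* was 0.769, 0.738 and 0.694 in WT and 1.34, 1.10 and 1.59 in cKO. These ratios were picked for their change in order and were not tested.

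A further 5 ratios were tested by an exact permutation test, two-sided, for which 3 libraries against 3 allow no p under 0.1. *Uhrf1* to *Dnmt1* was 1.63, 1.53 and 1.56 in WT and 1.93, 2.13 and 2.07 in cKO, a difference of 0.38 on the log2 scale. *Dnmt3a* to *Dnmt1* was 0.323, 0.317 and 0.317 in WT and 0.165, 0.198 and 0.17 in cKO, a log2 difference of -0.85. *Tet3* to *Dnmt1* was 0.353, 0.334 and 0.342 in WT and 0.118, 0.168 and 0.113 in cKO, the largest of the 5 log2 differences in size, at -1.39. Within the TET family, *Tet1* to *Tet3* was 0.183, 0.178 and 0.167 in WT and 0.507, 0.355 and 0.481 in cKO, and *Tet2* to *Tet3* was 0.238, 0.241 and 0.241 in WT and 0.379, 0.323 and 0.302 in cKO. The log2 differences were 1.33 for *Tet1* to *Tet3* and 0.47 for *Tet2* to *Tet3*. In all 5 ratios the groups did not overlap, and each had the smallest possible exact p of 0.1 (0.1 after Benjamini-Hochberg adjustment over the 5). Correcting GC content and length left log2 differences of 0.17 for *Tet2* to *Tet3*, 0.19 for *Uhrf1* to *Dnmt1* and 0.82 for *Tet1* to *Tet3*.

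**Figure D3:**
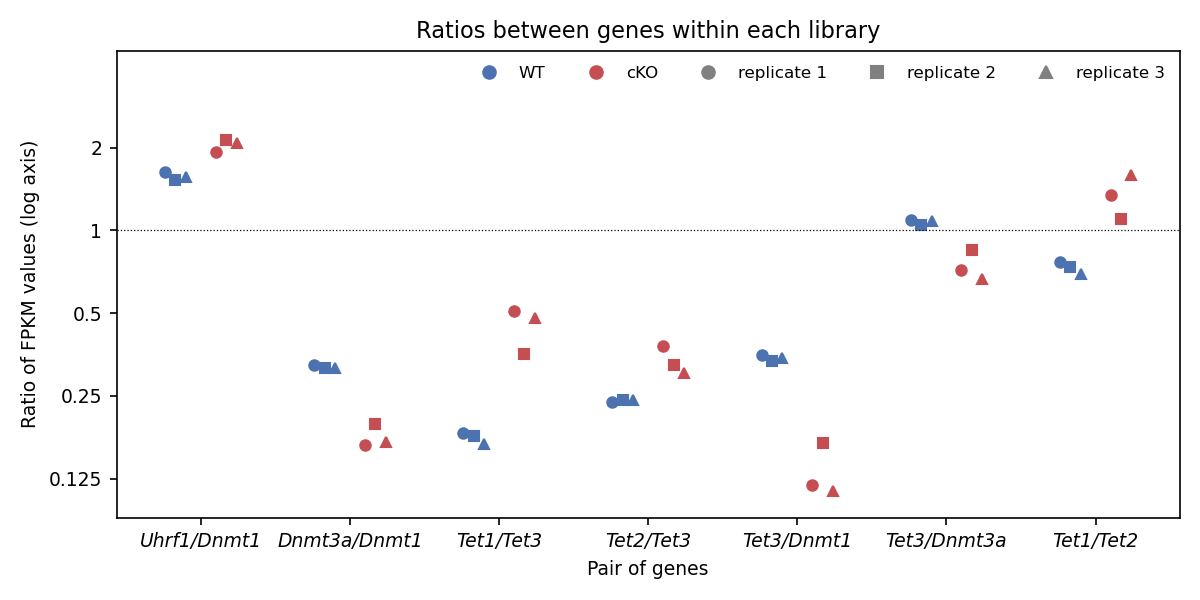
Ratios of FPKM values (log axis) between pairs of the 7 genes in each WT (blue) and cKO (red) library, with the marker shape giving the replicate number and the dotted line a ratio of 1. The groups are separate in every pair, and *Tet3* to *Dnmt3a* and *Tet1* to *Tet2* lie on opposite sides of 1 in WT and cKO.

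The makeup of each enzyme family was also described by shares, with no test. Of the summed FPKM of the TET genes, *Tet3* made up 70.6% ± 0.342 in WT and 56.2% ± 3.28 in cKO (SD, n = 3, as in the following values). The share of *Tet1* was 12.4% ± 0.506 in WT and 25% ± 3.35 in cKO, and that of *Tet2* 16.9% ± 0.190 and 18.8% ± 1.63, which overlapped through cKO 3. The TET sum itself went from 28.4 ± 0.458 to 16.5 ± 1.40 FPKM. For the DNMT genes, *Dnmt3a* gave 23.9% ± 0.211 of the summed FPKM in WT and 15.0% ± 1.27 in cKO, and *Dnmt1* gave 74.9% ± 0.168 and 84.2% ± 1.24. The DNMT sum, 78.3 ± 0.909 in WT and 83.8 ± 7.42 in cKO, overlapped between the groups through cKO 2. The DNMT sum was therefore 2.75 ± 0.0742 times the TET sum in WT and 5.13 ± 0.785 times in cKO.

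*Uhrf1* and *Dnmt1* work at the replication fork, so genes of S phase were set beside them. Of 25 genes such as *Mcm2*, *Rrm2* and *Cdc6*, 23 were called higher and 1, *Cdt1*, lower. Over all tested genes, 35.8% were called higher and 29.8% lower. The median log2 fold change was 1.03 for the 25 genes and 0.039 for all tested genes. *Chaf1a* was not called. The count was 21 higher and 1 lower both with WT as 1 averaged sample and under the same FPKM total, which gave a median of 0.48. Over all tested genes, the same FPKM total gave 8.74% called higher and 59.9% lower. In the main fit, the log2 fold change of *Uhrf1* was smaller than that of 22 of the 25 genes. That of *Dnmt1* was smaller than that of 24. Within a library, *Uhrf1* lay above the mean log2 FPKM of the 25 genes by 1.72, 1.66 and 1.67 in WT 1, 2 and 3 and by 1.39, 1.42 and 1.33 in cKO 1, 2 and 3. *Dnmt1* lay above it by 1.01, 1.04 and 1.03 in WT and by 0.44, 0.32 and 0.28 in cKO. Relative to these genes, both were thus lower in every cKO library than in any WT library, by 0.30 for *Uhrf1* and by 0.68 for *Dnmt1* on the log2 scale. How far the rise of S phase genes accounts for that of *Uhrf1* and *Dnmt1* was not tested.

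Other genes of the pathway were taken from a list of 59, all found in the files, of which 54 passed the filter. Of these, 16 were called higher, 20 lower and 18 not called, a share close to that of all genes, with a median log2 fold change of -0.025. Under the same FPKM total, 6 were called higher and 38 lower, against 8.74% and 59.9% of all tested genes. With GC content and length corrected, 15 were higher and 15 lower, against 30% and 27.2% of all genes. The last 2 shares also stand beside the corrected counts by role below. The counts by role below are to be read against 35.8% of all genes called higher and 29.8% lower, or 7.21% and 8.73% with WT as 1 averaged sample. The 5 genes under the filter were *Dnmt3l*, *Dppa3*, *Neil2*, *Zfp57* and *Cxxc4*.

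Of 11 tested partners of the methyltransferases, 5 were called higher and 2 lower (3 and 1 with WT as 1 averaged sample). *Hells*, the chromatin remodeller that opens DNA for methylation, averaged 14.5 FPKM in WT and 33.1 ± 2.66 in cKO (SD, n = 3), or 1.14 on the log2 scale (limma, adjusted p = 0.000111). *Pcna*, the sliding clamp to which DNMT1 binds, was at 409 and 897 ± 69.7, or 1.13 on the log2 scale, and *Pclaf*, a clamp partner listed under its older symbol *2810417H13Rik*, had a log2 fold change of 1.11. *Cdca7*, which recruits HELLS, and *Lig1*, the ligase of the lagging strand, had 0.59 and 0.72. The 2 called lower were *Ehmt2*, the histone H3 lysine methyltransferase G9a, at -0.82 (adjusted p = 0.000142), and *Usp7*, a deubiquitinase that binds UHRF1 and DNMT1, at -0.36 (adjusted p = 0.0140). *Uhrf2*, the paralog of *Uhrf1*, averaged 35.2 FPKM in WT and 35.3 ± 4.54 in cKO (limma, adjusted p = 0.955).

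Of 9 tested genes listed as readers of methylated DNA, 5 were called lower and 1, *Zbtb33*, higher. Their median log2 fold change was -0.38. With GC content and length corrected, 4 were lower and 0 higher, with a median of -0.19. The role is that of the list, and whether each product binds methylated DNA was not measured. With WT as 1 averaged sample 1 was called lower and 0 higher. *Mbd6* had the largest decrease, 33.8 FPKM in WT and 13.8 ± 2.82 in cKO (SD, n = 3), which is -1.26 on the log2 scale (limma, adjusted p = 0.000382). *Mbd2*, which brings the NuRD complex to methylated DNA, fell from 117 to 84.0 ± 9.69 FPKM, which is -0.48 on the log2 scale (adjusted p = 0.00306). *Mbd3*, a NuRD subunit, and *Zbtb4* had log2 fold changes of -0.59 and -0.56. *Zbtb33* lies on chromosome X.

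Of 7 tested genes with CXXC domains, which bind unmethylated CpG, or for partners of TET proteins, 5 were called lower and 1, *Dcaf1*, higher. With GC content and length corrected, 4 were lower and 2 higher, and with WT as 1 averaged sample 0 of the 7 were called. *Kdm2b*, a histone demethylase of a Polycomb complex, was at -0.92 on the log2 scale (limma, adjusted p = 0.00161), and *Kdm2a*, *Cxxc5* and *Kmt2a* had -0.59, -0.60 and -0.59. *Ogt*, the O-GlcNAc transferase that binds TET2 and TET3, was at 95, 94.8 and 94.4 FPKM in WT 1, 2 and 3 and at 52.9, 75.5 and 49.5 in cKO 1, 2 and 3. The log2 fold change of *Ogt*, which is on chromosome X, was -0.69 (adjusted p = 0.00523).

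Genes for the removal of oxidised or deaminated bases went both ways. Of 12 tested, 3 were called higher and 4 lower (1 and 0 with WT as 1 averaged sample). *Tdg*, the glycosylase that excises the products of TET oxidation, had an FPKM of 14.7, 18.2 and 14.3 in WT 1, 2 and 3 and of 21.5, 14.2 and 15.7 in cKO 1, 2 and 3, so the groups overlapped (log2 fold change 0.10, adjusted p = 0.607 from limma). *Apex1*, the endonuclease of base excision repair, was called higher at 1.03, and so were *Neil3* at 0.36 and *Mbd4* at 0.35. The genes called lower were *Gadd45g*, *Gadd45b*, *Smug1* and *Parp1*, with log2 fold changes of -0.91, -0.87, -0.65 and -0.33. For *Gadd45g* the groups overlapped, since cKO 2 was at 5.32 FPKM and WT 2 at 4.98.

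For the supply of the methyl donor and of cofactors, 6 of 15 genes were called higher and 4 lower (2 and 0 with WT as 1 averaged sample). *Shmt1* and *Mthfd1*, enzymes of folate metabolism, had log2 fold changes of 1.16 and 0.91, and *Ahcy*, which clears the product that inhibits methyltransferases, had 0.52. *Mat2a*, which makes S-adenosylmethionine, was not called (-0.14, adjusted p = 0.269 from limma). *Idh1*, which makes the 2-oxoglutarate that TET enzymes use, was called higher at 0.65, while *Idh2* had 0.14 and was not called (adjusted p = 0.145). Among the genes called lower, *Ahcyl1*, *D2hgdh* and *Ahcyl2* were at -0.52, -0.32 and -0.24.

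**Figure D4:**
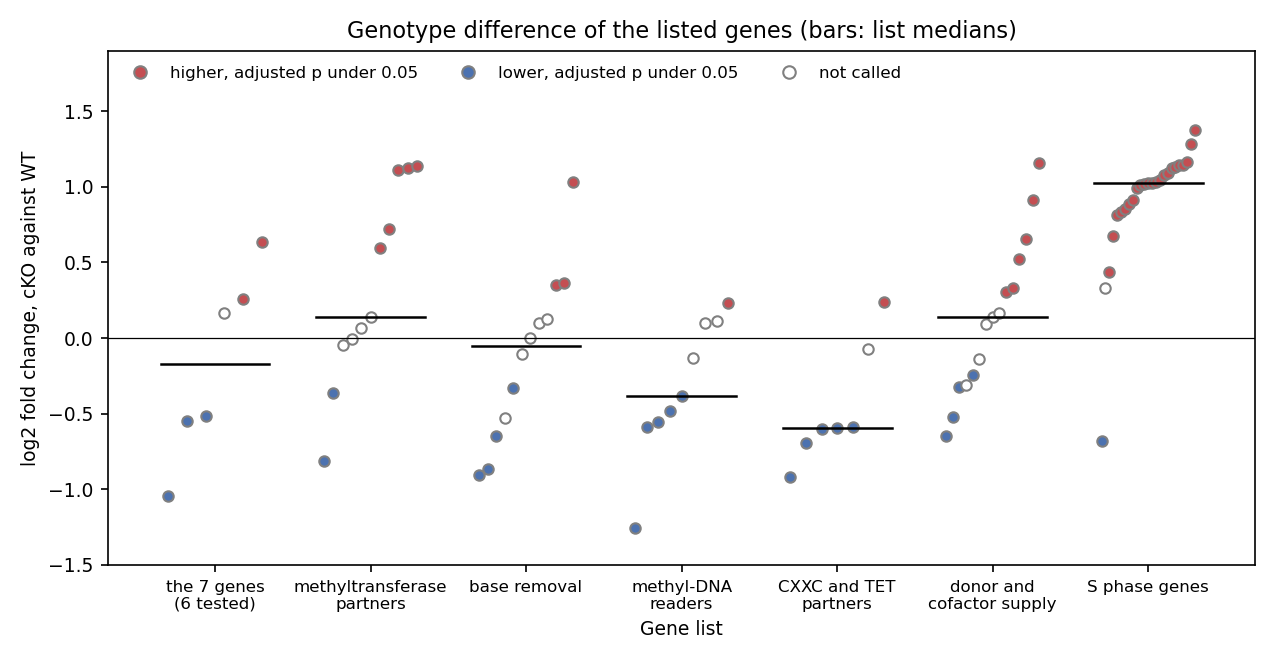
Log2 fold change of cKO against WT for the tested genes of each list, with called genes in red (higher) or blue (lower), genes not called in white and the list median as a bar. The S phase genes lie around 1.03, and the genes listed as readers and the list of CXXC and TET partners have medians of -0.38 and -0.59.

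Finally, the genes whose profiles over the 6 libraries were most like those of the 6 tested genes were found by the Euclidean distance between log2(FPKM + 1) profiles, each centred on its own mean, a measure that depends much on the size of the genotype difference. Among the 6 tested genes themselves, the closest pair was *Dnmt1* and *Tet1*, at a distance of 0.189, followed by *Dnmt3a* and *Tet2* at 0.275, and the farthest was *Uhrf1* and *Tet3* at 2.09. Over all tested genes, the nearest to *Dnmt3a* were *Satb1*, a chromatin organiser abundant in thymocytes, at 0.037, and *Fnbp1* at 0.041. The nearest to *Tet3* were *Rere*, a nuclear receptor corepressor, at 0.057 and *Fbxl20* at 0.066, and those to *Tet2* were *Gtf3c2* at 0.054 and *2410089E03Rik* at 0.086. *Dnmt1* was nearest to *Sla2*, an adaptor of antigen receptor signaling, at 0.024 and to *Eif4a3* at 0.042. *Uhrf1* was nearest to *Ctsb*, the protease cathepsin B, at 0.042 and to *Cpne3* at 0.050, and *Tet1* to *Gnb1l* at 0.056 and to *Fads1* at 0.066.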

How the data were processed

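Poly(A)-enriched directional libraries were sequenced as paired-end reads, trimmed with fastx trimmer and mapped to mm10 with TopHat, and the FPKM values deposited by the authors were calculated with Cufflinks, 1 per gene symbol and library. Versions of the trimmer, mapper and FPKM tool, strand setting and gene annotation are not given in the sources used here. The study's own test ran on raw counts, and FPKM values are not counts, so limma was used in its place.

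Libraries were scaled by size factors from medians of ratios (1.002 to 1.015). Genes had to reach an FPKM of 1 in 3 or more libraries, which left 10326, and log2(FPKM + 1) was fitted by genotype with limma 3.58.1 (lmFit, and eBayes with a trend) in R 4.3.3, and p-values were adjusted over all tested genes by the Benjamini-Hochberg method at 0.05. In data simulated with the spread of the cKO libraries in both groups, the fit called 76 of 100 2-fold changes and 93 of 100 4-fold changes. It made 3 false calls. Changes under 2-fold were not simulated, so the simulation does not cover smaller changes. Depth was estimated at 2611 protein-coding genes with 1 annotated transcript over 1000 nucleotides and an assumed fragment length of 200. Of the symbols, 22110 were matched to GENCODE M21 (GRCm38) directly and 647 through RefSeq synonyms. Counting noise was compared by the median chi-square of estimated fragments over genes with at least 10 fragments. Fragments behind a gene were estimated with its longest transcript. Ratios were tested with scipy 1.17.1 in Python 3.11.15.

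The 7 genes and all lists were chosen with earlier results of these data known. Named genes were *Nsrp1*, the 7 genes, *Dnmt3l*, *Usp7*, *Hells*, *Pcna*, *Tdg*, *Mbd2* and *Idh2*, up to 3 genes per direction with the largest called change in each role of the wider list, and the 2 nearest profiles. Some genes that this rule names are not reported here. Others in the text (*Cdca7*, *Lig1*, *Uhrf2*, *Kdm2a*, *Kmt2a*, *Gadd45g*, *Ahcy*, *Ahcyl2*, *Mat2a*, *Cdt1* and *Chaf1a*) were named after their values were seen. Alternatives were another pseudocount (0.1 or 0.5), no filter, other scalings, a replicate block, no trend, the WT libraries averaged on the log2 scale as 1 sample, a correction for GC content and length by natural splines with 5 degrees of freedom each, and each library left out. Correcting length alone was added after seeing the data.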

Additional observations from a re-analysis of the deposited data

How the results depend on the processing

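*Tet3* was called lower in every alternative run, and *Uhrf1*, *Dnmt3a* and *Tet2* kept their direction in all of them. With the WT libraries as 1 sample, log2 fold changes were as before but *Uhrf1* (0.63), *Dnmt1* (0.26), *Dnmt3a* (-0.55) and *Tet2* (-0.51) were not called, which left 0 of the 7 genes called higher and 1 lower, with 744 and 901 of all genes and 6 and 2 of the wider list. The same FPKM total reversed *Dnmt1* to -0.29 and *Tet1* to -0.28, both called lower, and took *Uhrf1* to 0.077, not called. The same FPKM total gave 0 higher and 5 lower among the 7 genes, 902 and 6181 over all genes and 6 and 38 in the wider list. It moved the median of all genes from 0.039 to -0.45. *Dnmt1* was not called under quantile normalization (0.017), without the filter (0.26) or with the replicate block (0.26), and in the last 2 settings 1 of the 7 genes was called higher. *Tet1* was called higher under quantile normalization (0.32), with GC content and length corrected (0.26) and with length corrected alone (0.37). Leaving out 1 library gave 1 to 3 genes called higher, log2 fold changes of 0.20 to 0.35 for *Dnmt1*, which was called only without cKO 2, and of 0.099 to 0.22 for *Tet1*, likewise. The replicate number of the labels did not pair the libraries (correlations of same-numbered deviations -0.0223, 0.0385 and 0.0309), and the block changed the call of no other of the 7 genes. Under quantile normalization, the log2 differences of ratios were 0.24 (*Uhrf1* to *Dnmt1*), -0.56 (*Dnmt3a* to *Dnmt1*), 0.68 (*Tet2* to *Tet3*) and -1.06 (*Tet3* to *Dnmt1*). With GC content and length corrected they were 0.19 (*Uhrf1* to *Dnmt1*), 0.82 (*Tet1* to *Tet3*) and 0.17 (*Tet2* to *Tet3*). The causes were not tested. Depth limits *Dnmt3b* most, and isoforms were not analysed here.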
